A study of Mus musculus with 10 samples.

Results

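A set of 33 endothelial and angiogenic genes was examined in RNA from mouse ventricles. They were chosen by name from a list of known endothelial markers, blood vessel growth factors, their receptors and endothelial transcription factors. Each gene was read through the probe sets annotated to its symbol alone, and its brightest probe set gave its value. All 33 genes were measured, on 51 probe sets, among 12393 genes with such a probe set, and no filter on low values was applied.

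The arrays belonged to a study of early mild and severe cardiac hypertrophy in 3 genotypes, with 10 Affymetrix arrays in all. Alpha-TM180 had 4 arrays, of which 3 held RNA from individual hearts and array 4 held a pool of 20 heart extracts. Alpha-TM175 had 3 arrays, of which 2 were individual hearts and array 3 a pool of 20. Nontransgenic controls (NTG) also had 3 arrays, with 2 individual hearts and a pool of 20 on array 3. Mice known by these names carry a transgene for alpha-tropomyosin, a thin filament protein of the heart muscle cell, with a mutation found in familial hypertrophic cardiomyopathy. The labels give no age, sex, strain or transgene promoter, and list no treatment. They do not say whether the pools held the hearts that were also measured alone.

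Endothelial cells line the capillaries, larger vessels and inner surface of the heart. Vascular endothelial growth factors (VEGFs) act through Kdr and Flt1 on these cells, and angiopoietins act through Tek, with Tie1 as a partner receptor. Cell junctions built on Cdh5 and Cldn5 keep the vessel wall tight, while ETS, SOX and KLF transcription factors set the endothelial programme. In ventricular muscle, the capillary bed lies beside the cardiomyocytes, which make much of the Vegfa and Vegfb that endothelial cells receive. In whole tissue RNA of this kind, fewer cells of a type and less RNA per cell cannot be told apart.

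Median intensity was between 66.6 and 70.9 in the 10 arrays, and pairs of arrays correlated at between 0.964 and 0.995 on the log2 scale. The number of arrays limits the precision of every value below. Tpm1, the gene for alpha-tropomyosin, read between 15587 and 17346 in alpha-TM180, between 15434 and 16517 in alpha-TM175 and between 11241 and 13205 in NTG, and these probes cannot tell the transgene from the mouse gene. Alpha-TM175 array 1 differed from the other individual hearts in genes tied to the sex chromosomes, with Xist at 988 against 99.5 to 136. Markers of cardiomyocytes summed to between 54784 and 60472 over 10 genes in alpha-TM180, between 56354 and 58635 in alpha-TM175 and between 59283 and 64619 in NTG.

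None of the 33 genes passed an adjusted p of 0.05 between genotypes. The test was limma on log2 intensity with Benjamini-Hochberg adjustment over 22626 probe sets. In alpha-TM180 against NTG, 0 of 33 genes were called, where 0.504% of all probe sets were. In alpha-TM175 against NTG, 0 of 33 were called, where 0.00884% of all probe sets were, namely 1 each for Myh7 and Postn. In alpha-TM180 against alpha-TM175, 0 of 33 were called and 0% of all probe sets were. At an unadjusted p under 0.05, 5 genes stood out in alpha-TM180 against NTG (background 9.34%), 3 in alpha-TM175 against NTG (background 13.0%) and 1 in alpha-TM180 against alpha-TM175 (background 13.3%). The smallest adjusted p-values from limma were 0.366, 0.331 and 0.333 in the same order of comparisons. With extract type, pooled or individual, as a covariate, 0 of 33 were again called in each, with smallest adjusted p-values of 0.184, 0.0886 and 0.111.

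The estimates were small, and their intervals leave limited room for large differences. In alpha-TM180, 25 of 33 genes had a higher mean log2 intensity than in NTG and 8 a lower one, with a median difference of 0.10, against 0.00 over all genes. In alpha-TM175, 22 were higher and 11 lower than in NTG, with a median of 0.09, against 0.04 over all genes. Both comparisons use the same NTG arrays. The 95% interval of the log2 difference lay within 1 on either side of 0 for 32 of 33 genes in each of the 3 comparisons, so a change of the size of a doubling is outside the interval for nearly all of them. The exceptions were Cldn5 in alpha-TM180 against NTG, and Flt1 in both comparisons that involve alpha-TM175. In the plot of differences from NTG, most intervals cross 0: they included it for 28 of 33 genes in alpha-TM180 and for 30 of 33 in alpha-TM175.

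**Figure D1:**
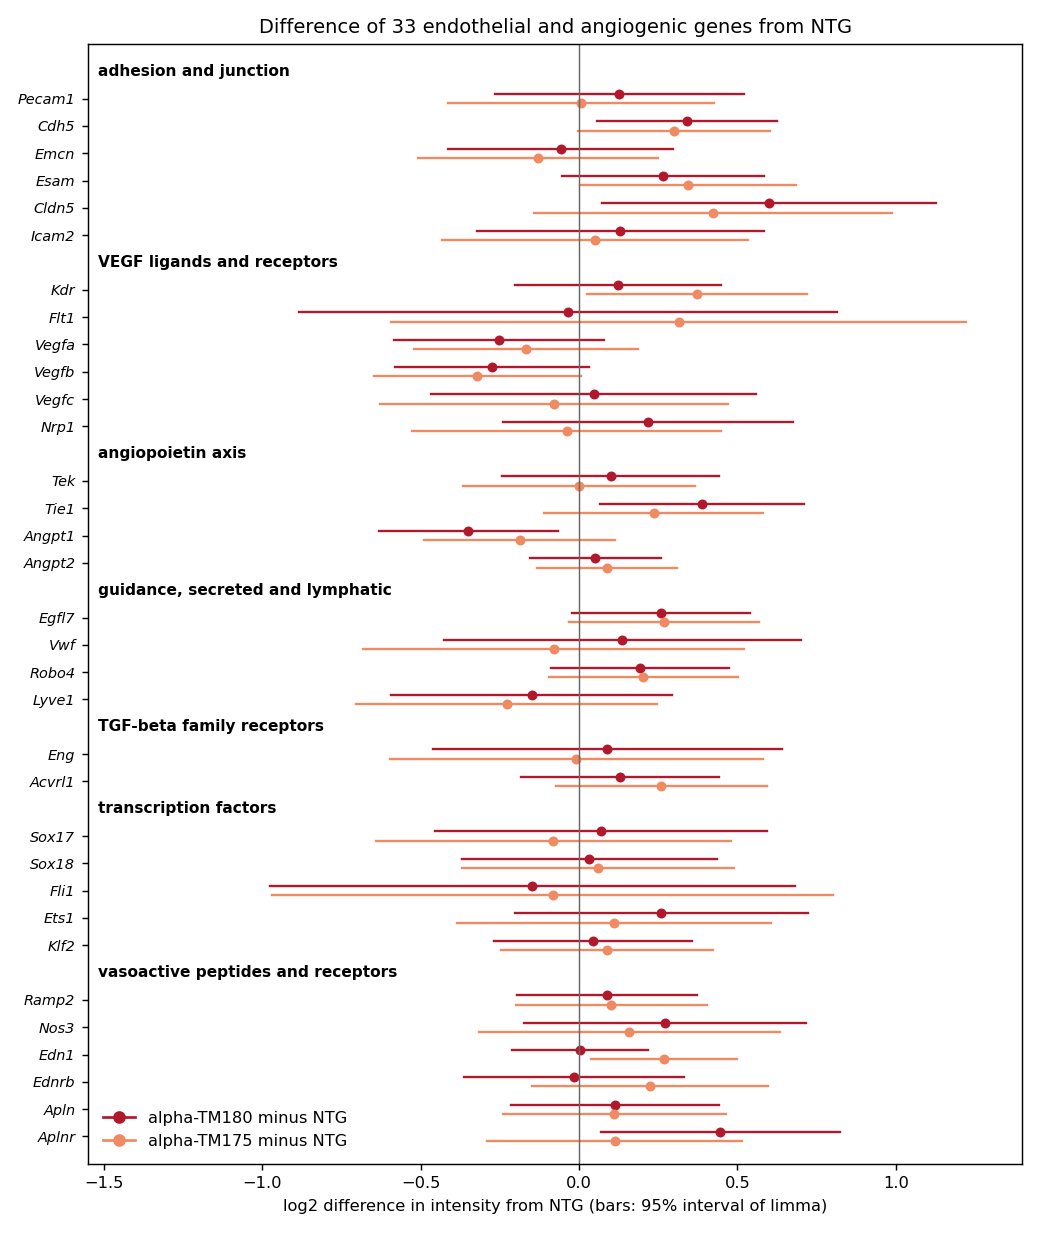
Log2 difference in intensity of 33 genes, ordered by role, in alpha-TM180 minus NTG (dark red) and alpha-TM175 minus NTG (orange), with 95% intervals of the limma fit. Point estimates run from -0.35 for Angpt1 to 0.60 for Cldn5 in alpha-TM180, and from -0.32 for Vegfb to 0.42 for Cldn5 in alpha-TM175, and none passed an adjusted p of 0.05.

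Among the adhesion and junction genes, 5 of 6 had higher means than NTG in alpha-TM180 and 5 of 6 in alpha-TM175. Emcn, a sialomucin of capillary and venous endothelium, was the exception in both. Over all genes 50.8% had higher means in alpha-TM180 and 58.4% in alpha-TM175. In alpha-TM175, 3 of 6 were higher among individual hearts and 6 of 6 between the pools. In alpha-TM180, 5 of 6 were higher in each kind of extract. The array values below are linear intensities in order of array number, so that the last value of each genotype is its pool.

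Cdh5, the adhesion molecule of endothelial junctions (VE-cadherin), read 316.2, 324.0, 396.0 and 310.6 in alpha-TM180, 292.8, 303.7 and 388.6 in alpha-TM175 and 271.2, 283.5 and 240.5 in NTG. All 7 transgenic arrays were above all 3 NTG arrays. In its second probe set the alpha-TM180 arrays, at 100.4 to 152.3, overlapped with NTG, at 86.75 to 151.2, while alpha-TM175, at 152.0 to 173.1, did not. Means were 337 ± 39.9 (SD, n = 4) in alpha-TM180, 328 ± 52.4 (n = 3) in alpha-TM175 and 265 ± 22.1 (n = 3) in NTG. The log2 difference from NTG was 0.34 ± 0.13 (SE) in alpha-TM180, with a limma adjusted p of 0.393, and 0.30 ± 0.14 in alpha-TM175, with an adjusted p of 0.386. The alpha-TM175 value came mostly from the pools, which differed by 0.69, while the individual hearts differed by 0.10.

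Esam, an immunoglobulin-like molecule of tight junctions, read 768.5, 918.0, 640.8 and 645.9 in alpha-TM180, 650.1, 830.6 and 866.4 in alpha-TM175 and 584.1, 625.6 and 626.5 in NTG. Every transgenic array again lay above every NTG array, by a narrow margin for alpha-TM180 arrays 3 and 4 and alpha-TM175 array 1. Esam differed from NTG by 0.27 ± 0.14 on the log2 scale (SE, limma adjusted p = 0.664) in alpha-TM180 and 0.34 ± 0.15 (adjusted p = 0.380) in alpha-TM175.

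Cldn5, the main claudin of endothelial tight junctions, had the largest estimate of the 33 genes in both comparisons with NTG. It read 180.1, 305.7, 135.7 and 190.7 in alpha-TM180, 149.1, 160.2 and 212.6 in alpha-TM175 and 143.8, 107.7 and 136.1 in NTG. All alpha-TM175 arrays lay above the NTG arrays, whereas alpha-TM180 array 3 lay within their range and array 2 stood far above the rest. On the log2 scale Cldn5 differed from NTG by 0.60 ± 0.24 (SE, limma adjusted p = 0.436) in alpha-TM180, or 1.52-fold, with a 95% interval of the log2 difference of 0.07 to 1.13. In alpha-TM175 it was 0.42 ± 0.26 (adjusted p = 0.493).

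Pecam1, the adhesion molecule CD31 found on all endothelium, read 256.4, 329.2, 212.9 and 260.2 in alpha-TM180, 182.2, 264.7 and 288.9 in alpha-TM175 and 228.9, 224.9 and 267.0 in NTG. The 3 genotypes overlapped, and the spread within alpha-TM175 was wider than any difference of means. Pecam1 differed from NTG on the log2 scale by 0.13 ± 0.18 (SE, limma adjusted p = 0.977) in alpha-TM180 and 0.01 ± 0.19 (adjusted p = 0.992) in alpha-TM175. Icam2, a leukocyte ligand of endothelium, read between 176 and 336 and differed from NTG by 0.13 in alpha-TM180 and 0.05 in alpha-TM175. Emcn read between 170 and 291 and differed by -0.06 and -0.13.

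The VEGF ligands and receptors had no common direction between genotypes. In alpha-TM180, 3 of 6 had higher means than in NTG, and in alpha-TM175, 2 of 6 did. The sequences upstream of 3 receptor genes are shown here because these genes differed between pooled and individual extracts, as described further on. Their promoters are compared for AGGAAG and CGGAAG, here called ETS cores, from sites bound by the family of Fli1 and Ets1. Each sequence is the 250 bases before the RefSeq start of the gene on build GRCm38.p6, read 5′ to 3′ along the gene's own strand. Capitals mark AGGAAG or CGGAAG on either strand, so that CTTCCT and CTTCCG are the same cores on the opposite strand.
Flt1 (chr5:147726012-147726261, minus strand): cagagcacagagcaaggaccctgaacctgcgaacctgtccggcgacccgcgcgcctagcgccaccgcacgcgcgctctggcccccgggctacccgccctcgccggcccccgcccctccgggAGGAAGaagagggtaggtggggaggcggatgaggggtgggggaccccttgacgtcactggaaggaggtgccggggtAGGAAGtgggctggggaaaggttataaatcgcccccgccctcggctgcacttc
Nrp1 (chr8:128358823-128359072, plus strand): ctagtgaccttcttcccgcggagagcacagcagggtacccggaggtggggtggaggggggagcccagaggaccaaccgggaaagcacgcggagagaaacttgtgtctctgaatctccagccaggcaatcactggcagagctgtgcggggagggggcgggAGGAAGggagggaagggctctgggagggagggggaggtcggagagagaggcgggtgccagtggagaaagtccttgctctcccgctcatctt
Kdr (chr5:75978456-75978705, minus strand): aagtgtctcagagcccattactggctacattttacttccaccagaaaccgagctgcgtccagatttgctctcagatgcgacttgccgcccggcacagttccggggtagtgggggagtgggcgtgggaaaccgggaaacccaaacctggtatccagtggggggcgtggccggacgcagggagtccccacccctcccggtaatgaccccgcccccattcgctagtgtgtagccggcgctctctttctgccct
The Flt1 window held 2 of these cores, the Nrp1 window 1 and the Kdr window 0. Other forms of the ETS site were not searched for, so a window without these cores can still hold ETS sites.

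RefSeq promoters of 300 bases, each 250 before and 50 after the start, were at hand for 17 of the 33 genes, as 20 windows. AGGAAG on either strand occurred in 9 of 20, or 45.0%, against 35.4% of 32851 promoters of all genes. CGGAAG occurred in 5.0% against 16.9%. Either core was found in 45.0% of the members' windows and 46.5% of all. The GATA letters AGATAA were in 15.0% against 11.2%, the SOX letters ACAATG in 0% against 12.6%, the KLF letters GGGTGTGG in 5.0% against 3.56% and the FOX letters TGTTTAC in 0% against 3.65%. With 20 windows each of them weighs 5.0%, and a match of letters describes the sequence only.

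Kdr, the main signalling receptor for VEGF, read 519.2, 573.2, 505.2 and 642.6 in alpha-TM180, 659.3, 559.5 and 790.2 in alpha-TM175 and 436.1, 515.4 and 597.2 in NTG. In every genotype the highest array was the pool. Kdr differed from NTG by 0.12 ± 0.15 (SE, limma adjusted p = 0.964) in alpha-TM180 and by 0.37 ± 0.16 (adjusted p = 0.357) in alpha-TM175, where individual hearts gave 0.36 and pools 0.40. With extract type in the model, its adjusted p in alpha-TM175 was 0.0886, the smallest of the 33 genes in any genotype comparison with or without that covariate.

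Flt1, a high-affinity VEGF receptor that also acts as a decoy, read 198.1, 190.3, 197.2 and 397.2 in alpha-TM180, 218.4, 236.9 and 506.5 in alpha-TM175 and 170.6, 194.8 and 409.9 in NTG. All 3 pools were above 397, and all 7 individual hearts were below 237. This split made the SE of the genotype differences the widest of the 33 genes: -0.03 ± 0.38 (limma adjusted p = 0.999) in alpha-TM180 and 0.31 ± 0.41 (adjusted p = 0.764) in alpha-TM175. With extract type in the model, the alpha-TM175 difference was 0.31 ± 0.09 (adjusted p = 0.0989).

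Vegfa, the main ligand of both receptors, read 397.8, 370.8, 371.6 and 501.9 in alpha-TM180, 357.1, 443.3 and 508.6 in alpha-TM175 and 457.8, 447.9 and 556.2 in NTG. Each NTG individual heart lay above each individual transgenic heart, and the NTG pool above the transgenic pools. In its second probe set the NTG hearts, at 266.6 and 199.2, overlapped with the transgenic hearts, at 162.5 to 278.5. There too the NTG pool, at 422.6, lay above the alpha-TM180 and alpha-TM175 pools, at 324.8 and 279.1. Vegfa differed from NTG on the log2 scale by -0.25 ± 0.15 (SE, limma adjusted p = 0.723) in alpha-TM180 and -0.17 ± 0.16 (adjusted p = 0.672) in alpha-TM175. With extract type in the model the adjusted p-values were 0.290 and 0.332.

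Vegfb, a ligand of Flt1 that is abundant in heart muscle, read 1345, 1014, 873.5 and 1066 in alpha-TM180, 985.0, 1158 and 952.6 in alpha-TM175 and 1322, 1316 and 1217 in NTG. The alpha-TM175 arrays lay below all NTG arrays, while alpha-TM180 array 1 was above them. Vegfb differed from NTG by -0.27 ± 0.14 (SE, limma adjusted p = 0.610) in alpha-TM180 and by -0.32 ± 0.15 (adjusted p = 0.389) in alpha-TM175. Vegfc, the ligand of lymphatic growth, read between 19.4 and 36.9 and differed from NTG by 0.05 and -0.08. Nrp1, a VEGF coreceptor, read between 448 and 888 and differed by 0.22 in alpha-TM180 and -0.04 in alpha-TM175.

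In the angiopoietin axis, the receptors Tie1 and Tek had positive estimates in alpha-TM180 and the ligand Angpt1 a negative one. Tie1 read 324.6, 333.4, 274.6 and 245.6 in alpha-TM180, 223.1, 263.9 and 308.0 in alpha-TM175 and 243.4, 234.0 and 195.2 in NTG. All alpha-TM180 arrays lay above all NTG arrays, the pool by the least. The log2 difference from NTG was 0.39 ± 0.15 (SE, limma adjusted p = 0.390) in alpha-TM180, with means of 295 ± 41.7 against 224 ± 25.6 in NTG (SD, n = 4 and 3). In alpha-TM175 it was 0.24 ± 0.16 (adjusted p = 0.533), from 0.66 between pools and 0.02 between individual hearts.

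Angpt1, the ligand that activates Tek and is made by cells around the vessel, read 45.57, 47.26, 46.59 and 41.88 in alpha-TM180, 63.80, 44.22 and 46.08 in alpha-TM175 and 58.49, 53.71 and 61.15 in NTG. The 4 alpha-TM180 arrays lay close together and below all NTG arrays, and 1 alpha-TM175 heart was the highest of all. All these readings lie under the array medians. Means were 45.3 ± 2.40 (SD, n = 4) in alpha-TM180 and 57.8 ± 3.77 (n = 3) in NTG. The log2 difference was -0.35 ± 0.13 (SE, limma adjusted p = 0.366) in alpha-TM180 and -0.19 ± 0.14 (adjusted p = 0.575) in alpha-TM175.

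Tek, the angiopoietin receptor, read 345.3, 323.2, 403.0 and 364.4 in alpha-TM180, 306.0, 278.2 and 437.5 in alpha-TM175 and 353.5, 292.7 and 359.9 in NTG. Its genotypes overlapped, with log2 differences from NTG of 0.10 ± 0.16 (SE, limma adjusted p = 0.984) in alpha-TM180 and 0.00 ± 0.17 (adjusted p = 0.9998) in alpha-TM175. Angpt2, a ligand that endothelial cells release and that can oppose Angpt1, read between 16.3 and 20.6 and differed from NTG by 0.05 and 0.09. Readings this low lie well under the array medians, and no detection call was used here.

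Of the guidance, secreted and lymphatic genes, Egfl7, a secreted factor of the vessel wall, read between 383 and 544 and differed from NTG by 0.26 ± 0.13 in alpha-TM180 and 0.27 ± 0.14 in alpha-TM175 (SE, limma adjusted p = 0.597 and 0.423). Robo4, an endothelial receptor of the guidance family, read between 124 and 174 and differed by 0.19 and 0.20. Vwf, the clotting factor stored by endothelium, read between 85.1 and 174 and differed by 0.14 in alpha-TM180 and -0.08 in alpha-TM175. Lyve1, a hyaluronan receptor of lymphatic endothelium and of some macrophages, read between 65.4 and 115 and differed by -0.15 and -0.23. Of the receptors for TGF-beta family ligands, the coreceptor Eng averaged 980 ± 234 (SD, n = 4) in alpha-TM180, 935 ± 314 (n = 3) in alpha-TM175 and 905 ± 108 (n = 3) in NTG, and differed from NTG by 0.09 in alpha-TM180 and -0.01 in alpha-TM175. The kinase receptor Acvrl1 read between 112 and 183 and differed by 0.13 and 0.26.

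Among the transcription factors, Ets1 had the largest estimate in alpha-TM180, at 0.26 ± 0.21 (SE, limma adjusted p = 0.876), and read between 226 and 436. Its probe sets did not share this direction. The second averaged 273 in alpha-TM180 and 233 in NTG, the third 74.5 and 89.2, and the fourth 32.3 and 32.7. Sox17 and Sox18, SOX factors of arterial and lymphatic development, read between 60.8 and 134 and between 421 and 695. In alpha-TM180 they differed from NTG by 0.07 and 0.03, and in alpha-TM175 by -0.08 and 0.06. Klf2, which responds to blood flow, read between 368 and 561 and differed by 0.04 in alpha-TM180 and 0.09 in alpha-TM175. Fli1 read between 45.6 and 120 and differed by -0.15 and -0.08, with SEs of 0.38 and 0.40.

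The vasoactive genes included the only member whose 2 transgenic genotypes did not overlap. Edn1, the precursor of the vasoconstrictor endothelin, read 43.35, 52.44, 48.84 and 52.25 in alpha-TM180, 61.55, 57.00 and 58.39 in alpha-TM175 and 47.21, 53.27 and 46.62 in NTG. All alpha-TM175 arrays lay above all arrays of both other genotypes, at readings under the array medians and with no detection call. Means were 49.2 ± 4.25 (SD, n = 4) in alpha-TM180, 59.0 ± 2.33 (n = 3) in alpha-TM175 and 49.0 ± 3.68 (n = 3) in NTG. The log2 difference was -0.26 ± 0.10 (SE, limma adjusted p = 0.333) in alpha-TM180 against alpha-TM175 and 0.27 ± 0.10 (adjusted p = 0.331) in alpha-TM175 against NTG, while alpha-TM180 against NTG gave 0.00 ± 0.10 (adjusted p = 0.999). Ednrb, an endothelin receptor, was also highest on average in alpha-TM175, at 90.2 ± 12.6 (SD, n = 4) in alpha-TM180, 107 ± 20.9 (n = 3) in alpha-TM175 and 90.9 ± 10.7 (n = 3) in NTG, with overlapping arrays.

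Aplnr, the receptor for apelin, read 682.2, 872.3, 1009 and 792.9 in alpha-TM180, 758.3, 494.8 and 764.3 in alpha-TM175 and 577.8, 611.4 and 641.4 in NTG. Alpha-TM180 lay wholly above NTG, and 1 alpha-TM175 heart lay below it. The log2 difference from NTG was 0.45 ± 0.17 (SE, limma adjusted p = 0.403) in alpha-TM180, or 1.36-fold, and 0.11 ± 0.18 (adjusted p = 0.812) in alpha-TM175. Its ligand Apln read between 212 and 329 and differed by 0.11 in both genotypes. Nos3, the endothelial nitric oxide synthase, read between 108 and 195 and differed by 0.27 in alpha-TM180 and 0.16 in alpha-TM175. Ramp2, the partner of the adrenomedullin receptor, read between 440 and 669 and differed by 0.09 and 0.10.

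**Figure D2:**
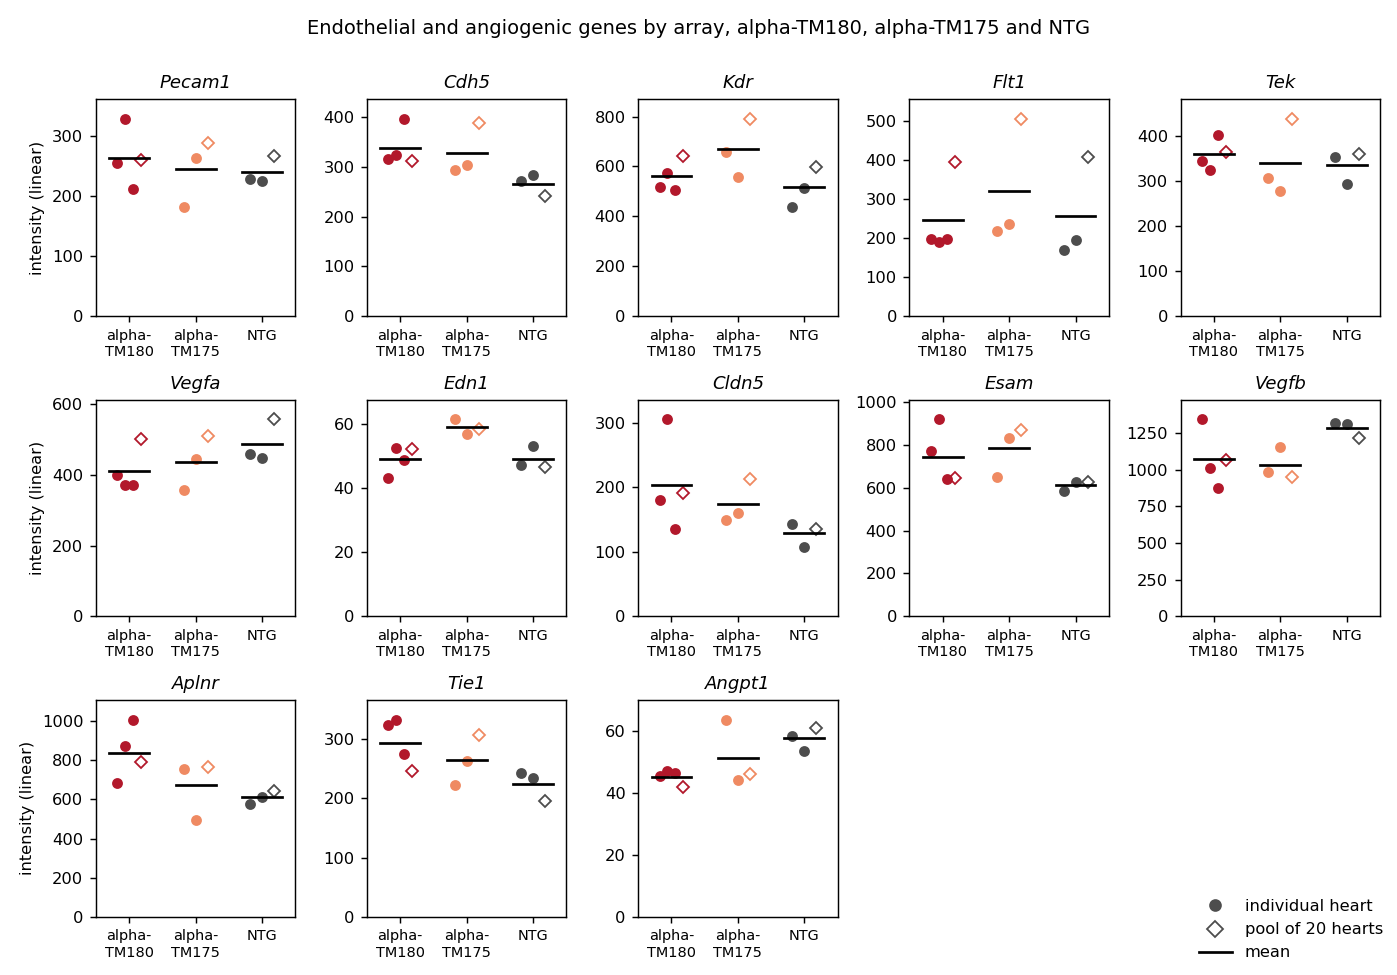
Linear intensity in each array for 13 genes, with alpha-TM180 at the left, alpha-TM175 in the middle and NTG at the right of each panel. Filled circles are individual hearts, open diamonds are pools of 20 hearts and bars are means. Flt1 pools lie between 397.2 and 506.5, above every individual heart, and the Edn1 arrays of alpha-TM175 lie above those of both other genotypes.

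Counted over the list, 4 genes had all alpha-TM180 arrays above all NTG arrays (Cdh5, Esam, Tie1 and Aplnr), where 5.98% of all probe sets did, and 1 had them all below (Angpt1), where 4.19% did. In alpha-TM175 against NTG, 4 lay wholly above (Cdh5, Esam, Cldn5 and Edn1), with a background of 8.42%, and 1 wholly below (Vegfb), with a background of 8.11%. Edn1 alone lay wholly below in alpha-TM180 against alpha-TM175, with a background of 7.37%. In either direction the backgrounds were 10.2%, 16.5% and 13.6% in the same order, so 5, 5 and 1 of 33 genes lie near or below them, apart from a somewhat larger share in alpha-TM180 against NTG that was not tested. The second and further probe sets of the 33 genes also gave 0 calls between genotypes.

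The 33 genes also differed as a set between arrays of 1 genotype. Measured as the median deviation of the 33 genes from each gene's mean over 10 arrays, on the log2 scale, the alpha-TM180 arrays stood at 0.03, 0.07, -0.15 and 0.09. The alpha-TM175 arrays stood at -0.17, -0.03 and 0.30, and the NTG arrays at -0.08, -0.15 and 0.02. The alpha-TM175 pool was thus the highest array and an alpha-TM175 heart the lowest, while over all genes the median stayed between -0.06 and 0.03. Within each genotype the pool had the highest median of the 33 genes.

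**Figure D3:**
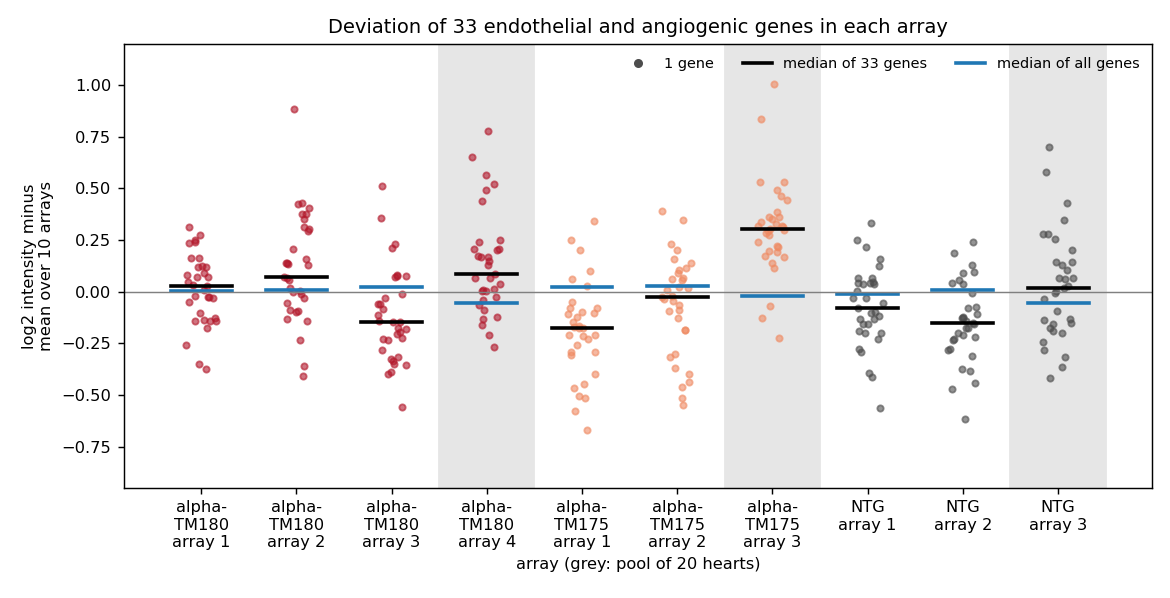
Deviation of each of 33 genes from its mean over 10 arrays on the log2 scale, by array, with alpha-TM180 first, then alpha-TM175 and NTG. Black bars are medians of the 33 genes, blue bars medians of all genes, and grey columns are pools. The median of the alpha-TM175 pool is 0.30 and that of alpha-TM175 array 1 is -0.17.

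Genotype differences were not alike in the 2 kinds of extract. In individual hearts alone, the median log2 difference over the 33 genes in alpha-TM175 minus NTG was 0.00, with 17 genes higher. Between the pools it was 0.31, with 29 genes higher, while over all genes the medians were 0.03 in individual hearts and 0.04 between pools. In alpha-TM180 minus NTG the medians were 0.10 in individual hearts, with 24 genes higher, and 0.07 between pools, with 25 higher, against 0.00 and -0.01 over all genes. In alpha-TM180 minus alpha-TM175 the direction turned: 26 of 33 genes were higher in alpha-TM180 among individual hearts, with a median of 0.12, and 6 of 33 between pools, with a median of -0.16, against -0.01 and -0.03 over all genes. Each pool comparison rests on 1 array a side, and the dependence on extract type was not tested as an interaction. Without alpha-TM175 array 3, its pool, the median over all arrays in alpha-TM175 minus NTG was -0.07, and without array 1 it was 0.21.

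More of these genes were called between extracts than between genotypes. With genotype in the model, 9 of 33 genes passed an adjusted p of 0.05 in limma and all 9 were higher in the pools. That is 27.3% of the genes, where 22.2% of all probe sets were called and 10.0% were called as higher. The median log2 difference, pooled minus individual, was 0.18 over the 33 genes and -0.07 over all genes, and 27 of 33 genes were on the higher side. In 8 of 33 genes every pool lay above every individual heart, where 7.09% of all probe sets did. Only 3 pools enter this comparison: without the alpha-TM175 pool 4 of the 9 calls were made, and without the alpha-TM180 pool 5 calls were made. Xist, which is expressed in female cells, read 394, 414 and 149 in the alpha-TM180, alpha-TM175 and NTG pools, and without alpha-TM175 array 1, where it was high, 8 of 33 genes were called. Over all arrays Xist read between 99.9 and 148.8 in NTG, between 99.52 and 393.7 in alpha-TM180 and between 129.9 and 987.6 in alpha-TM175. The genotypes may therefore not be balanced for sex. The part of sex in the differences between extracts and between genotypes was not tested.

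The VEGF axis, with 6 members, held 5 of the 9 called genes. Flt1 rose by 1.11 ± 0.08 on the log2 scale (SE, limma adjusted p = 1.22e-06), or 2.16-fold. Vegfc rose by 0.60 ± 0.10 (adjusted p = 0.00184), with 36.92, 32.69 and 35.34 in the alpha-TM180, alpha-TM175 and NTG pools against 19.4 to 25.8 in individual hearts. These Vegfc readings are well under the array medians, with no detection call. Nrp1 rose by 0.52 ± 0.10 (adjusted p = 0.00416), Vegfa by 0.35 ± 0.08 (adjusted p = 0.0123) and Kdr by 0.33 ± 0.09 (adjusted p = 0.0216). Vegfb was the exception, at -0.09 ± 0.12 (adjusted p = 0.620).

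Of the 5 transcription factors 3 were called. Fli1 rose by 1.05 ± 0.11 (SE, limma adjusted p = 6.18e-05), with pools at 115.7, 120.4 and 100.8 in alpha-TM180, alpha-TM175 and NTG, and individual hearts between 45.65 and 62.95. Sox17 rose by 0.57 ± 0.12 (adjusted p = 0.00884) and Ets1 by 0.49 ± 0.11 (adjusted p = 0.0106). The last called gene was Vwf, at 0.51 ± 0.16 (adjusted p = 0.0423). Flt1, Fli1, Vegfc and Nrp1 kept their call with any 1 of the 10 arrays left out, whereas Vwf kept it in 2 of 10 such fits.

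None of the 6 adhesion and junction genes, 4 angiopoietin genes, 6 vasoactive genes or 2 TGF-beta family receptors was called. All 6 adhesion and junction genes were nonetheless on the higher side, with a median of 0.19, close to the 0.18 of all 33 genes. Icam2 differed by 0.27, Emcn by 0.25, Pecam1 by 0.20 and Cldn5 by 0.18, while Cdh5 and Esam differed by 0.00. Of the angiopoietin genes 2 of 4 were on the higher side, with Tek at 0.25 (limma adjusted p = 0.130). Of the vasoactive genes 5 of 6 were, with Nos3 at 0.25 and Edn1 at 0.00. Whether these groups of genes differed from the VEGF genes was not tested. The cause of the split between extracts was not tested, and the labels describe the extracts as pooled or not, with no date or batch.

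Probe sets of one gene gave different sizes in this comparison. Over all 51 probe sets of the 33 genes, 19 (37.3%) were called, all 19 as higher, beside the 22.2% called and 10.0% called as higher among all probe sets. The 3 Nrp1 probe sets differed by 0.52, 1.15 and 1.58, those of Flt1 by 1.11, 0.97 and 0.62, and the 4 of Ets1 by 0.49, 0.86, 0.95 and 1.06. The second Vegfa probe set differed by 0.65 and the second Fli1 probe set by 0.91. In the second Sox17 probe set the pools, at 80.23 to 96.2, overlapped with the individual hearts, at 51.91 to 87.88. In contrast, the 4 Egfl7 probe sets lay between -0.15 and 0.07. Promoter windows were at hand for 17 genes. AGGAAG or CGGAAG lay in the 250 bases of 2 of 5 genes called in the pools (Flt1 and Nrp1, but not Kdr, Vegfa or Vegfc). The same letters lay in 6 of 12 genes not called. Other forms of the ETS site were not searched for, and a part of ETS factors in the difference between extracts was not tested.

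**Figure D4:**
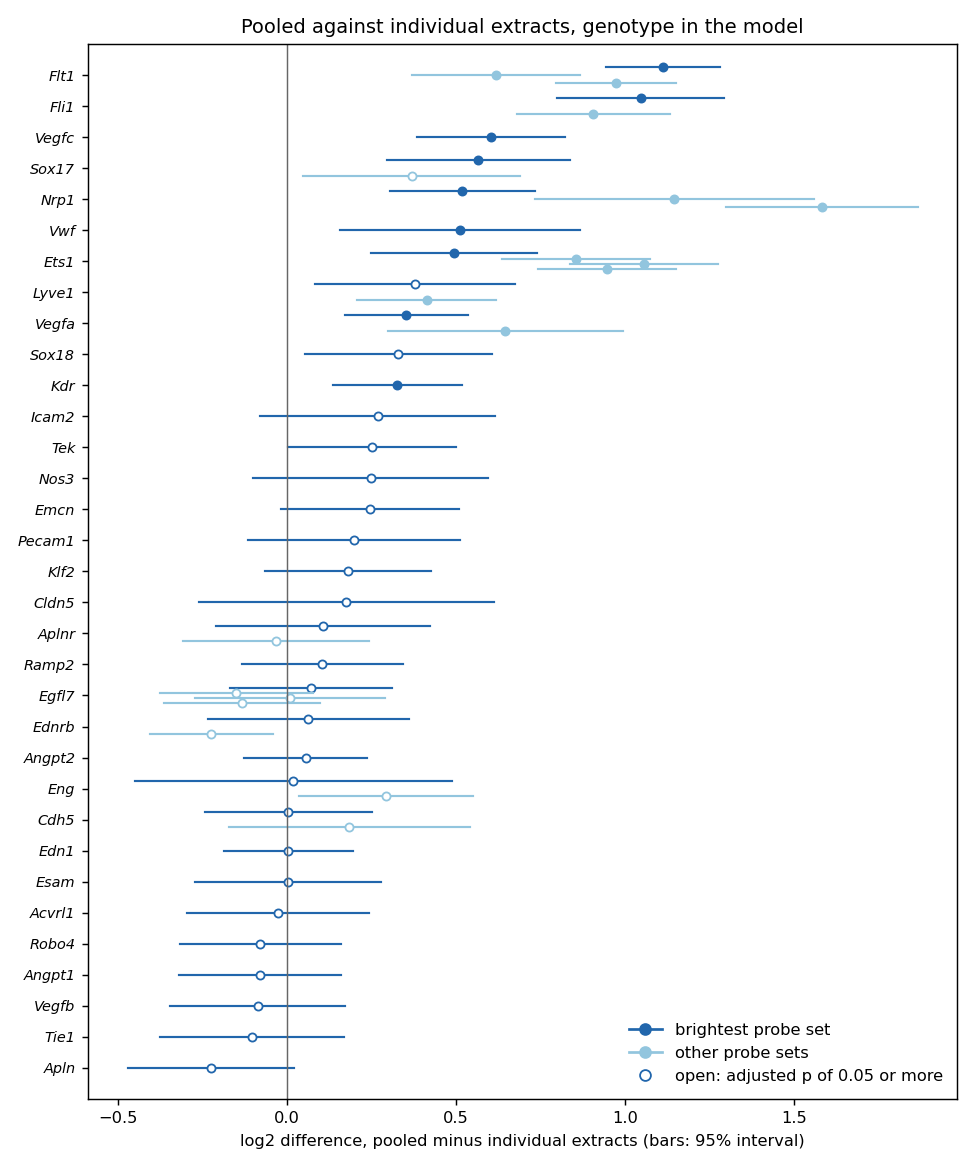
Log2 difference, pooled minus individual extracts with genotype in the model, for all 51 probe sets of 33 genes, ordered by the brightest probe set (dark blue) with other probe sets in light blue. Bars are 95% intervals and open points did not pass an adjusted p of 0.05. Among the brightest probe sets Flt1 at 1.11 and Fli1 at 1.05 lead, and Apln at -0.23 is lowest.

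A wider list of endothelial and angiogenic genes was read beside the 33. Of 80 genes listed, 71 were measured, and 0 of 71 were called by limma in any genotype comparison. Under an unadjusted p of 0.05 lay 13 of 71 (18.3%, background 9.34%) in alpha-TM180 against NTG, 14 (19.7%, background 13.0%) in alpha-TM175 against NTG and 7 (9.86%, background 13.3%) in alpha-TM180 against alpha-TM175. With extract type in the model, 5 of 71 rose in alpha-TM180 against NTG, where 2.01% of all probe sets were called and 1.47% as higher. In alpha-TM175, 1 of 71 rose, where 0.862% were called and 0.128% as higher. None fell in either, and 0 of 71 were called in alpha-TM180 against alpha-TM175, where 0.0265% of all probe sets were. The medians against NTG in that model were 0.08 in alpha-TM180 and 0.10 in alpha-TM175.

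Vegfd, a lymphatic growth factor and ligand of Flt4, read 62.34, 59.35, 67.55 and 59.42 in alpha-TM180, 54.35, 62.77 and 54.90 in alpha-TM175 and 46.04, 46.92 and 39.05 in NTG. All transgenic arrays lay above all NTG arrays. With extract type in the model it rose by 0.49 ± 0.09 in alpha-TM180 (SE, limma adjusted p = 0.0165), and without extract type the adjusted p was 0.0650. In alpha-TM175 it differed by 0.38 ± 0.10 (adjusted p = 0.0712). Its other 2 probe sets differed by 0.32 and 0.41 in alpha-TM180 with extract type in the model, and neither was called (limma adjusted p = 0.225 and 0.144). Individual hearts gave 0.19 and 0.23 in these probe sets, and the pools 0.61 and 0.81.

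Cd34, a sialomucin of endothelium and of stromal and blood progenitors, read 584.0, 673.8, 477.2 and 680.2 in alpha-TM180, 462.6, 372.3 and 546.8 in alpha-TM175 and 362.7, 320.4 and 454.9 in NTG. The alpha-TM180 arrays lay above all NTG arrays, and alpha-TM175 overlapped with both. It rose by 0.70 ± 0.12 in alpha-TM180 (SE, limma adjusted p = 0.0142 with extract type and 0.153 without). Cd34 is also expressed by fibroblasts, whose markers are given below.

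Cd93, a membrane protein of endothelium and myeloid cells, read 558.5, 846.5, 645.6 and 719.7 in alpha-TM180, 532.0, 506.7 and 705.9 in alpha-TM175 and 438.3, 392.0 and 531.9 in NTG. The alpha-TM180 arrays lay above all NTG arrays. Cd93 rose by 0.63 ± 0.13 in alpha-TM180 (limma adjusted p = 0.0330 with extract type and 0.193 without). Its second probe set differed by 0.09, so the call rests on 1 of 2 probe sets.

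Procr, the endothelial protein C receptor, read 27.09, 31.84, 33.12 and 32.14 in alpha-TM180, 28.56, 26.01 and 28.52 in alpha-TM175 and 23.76, 22.15 and 21.44 in NTG. Both transgenic genotypes lay above NTG, at readings that are likewise well under the array medians. In alpha-TM180 it rose by 0.47 ± 0.10 (adjusted p = 0.0280 with extract type and 0.0688 without). Smad1, which carries BMP signals to the nucleus, read 117.2, 133.8, 127.7 and 134.6 in alpha-TM180, 102.3, 97.77 and 130.8 in alpha-TM175 and 89.48, 91.72 and 105.3 in NTG. All alpha-TM180 arrays lay above all NTG arrays. Smad1 rose by 0.45 ± 0.09 (adjusted p = 0.0255 and 0.187), while its second probe set differed by 0.10.

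Jag1, a Notch ligand of endothelium and smooth muscle, was the gene that rose in alpha-TM175. It read 36.91, 37.45, 42.20 and 32.82 in alpha-TM180, 46.70, 50.39 and 50.12 in alpha-TM175 and 34.46, 36.75 and 32.66 in NTG. The alpha-TM175 arrays lay above those of both other genotypes, at readings under the array medians and with no detection call. The log2 difference from NTG was 0.50 ± 0.10 in alpha-TM175 (SE, limma adjusted p = 0.0443 with extract type and 0.161 without), and its second probe set differed by 0.07. With 1 array left out in turn, Jag1 kept its call in 2 of 10 fits, Smad1 in 4, Procr and Cd93 in 5, Cd34 in 7 and Vegfd in 8.

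**Figure D5:**
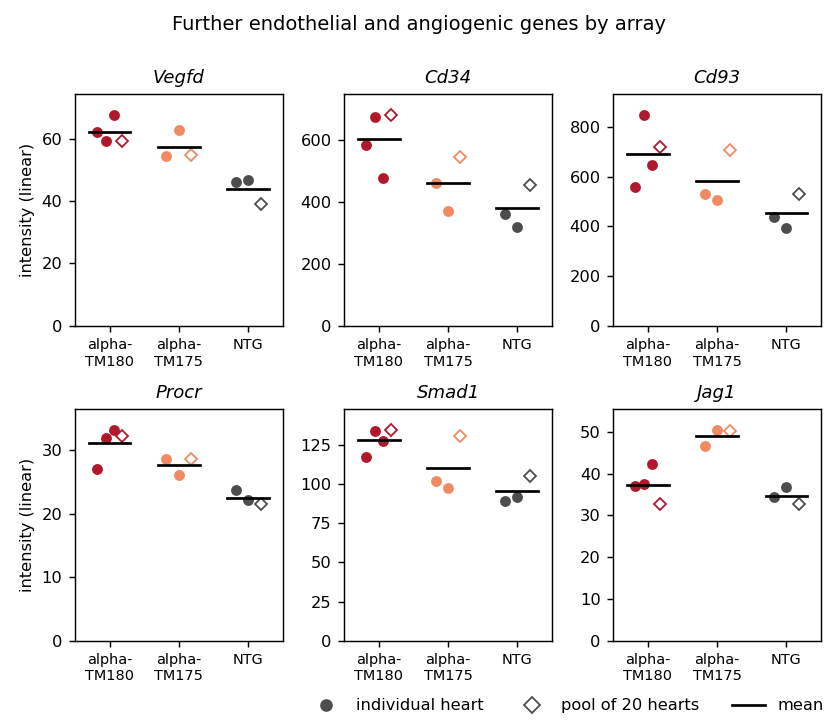
Linear intensity in each array for the 6 further genes called with extract type in the model, with alpha-TM180 at the left, alpha-TM175 in the middle and NTG at the right of each panel. Filled circles are individual hearts, open diamonds pools of 20 hearts and bars means. Vegfd arrays of alpha-TM180 lie between 59.35 and 67.55 and those of NTG between 39.05 and 46.92, and Jag1 is highest in alpha-TM175.

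In pooled against individual extracts, 18 of 71 further genes were called, 16 as higher and 2 as lower. Of all probe sets 22.2% were called and 10.0% were called as higher. Ptprb, the phosphatase that restrains Tek, rose the most, by 1.25, and Epas1, a hypoxia-inducible factor of endothelium, rose by 0.84. Selp fell by 0.63.

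Among markers of other cell types, fibroblast genes were called against NTG. Of 10 fibroblast markers, 3 rose in alpha-TM180 against NTG, where 0.371% of all probe sets were called as higher, and 1 in alpha-TM175. With extract type in the model, the fit that called the further genes above, 6 of 10 rose in alpha-TM180 (background 1.47%) and 1 in alpha-TM175 (background 0.128%). Their intensities summed to between 14618 and 18213 in alpha-TM180, between 12081 and 15791 in alpha-TM175 and between 9356 and 11221 in NTG, with no overlap between either transgenic genotype and NTG. The 12 endothelial markers, all members of the list, summed to between 3731 and 4547 in alpha-TM180, between 3653 and 5128 in alpha-TM175 and between 3422 and 3835 in NTG. Of 11 smooth muscle and pericyte markers 0 were called in either, 1 fell in alpha-TM180 with extract type in the model, and they summed to between 8188 and 10325 in alpha-TM180, between 6362 and 7955 in alpha-TM175 and between 7439 and 7776 in NTG. In the pools, 4 of 10 fibroblast markers were called as higher, a larger share than the 27.3% of the 33 genes, with a background of 10.0%. The part of these cell types in the values of the 33 genes was not tested.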

How the data were processed

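RNA from mouse ventricles was hybridised to 10 Affymetrix arrays, 1 per sample. The deposited intensity values were made by the authors with RMA, per the submitters' processing notes, which give no version. Values from 1000 up were written with a point after the leading digits in the deposited table, so 7834 values in 1056 probe sets were read as 1000 times the number written. Another 229 probe sets could not be settled and were kept as written, and none of them gave the value of the 33 genes. The reading rule was tested on simulated data.

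Log2 intensity was fitted with limma 3.58.1 in R 4.3.3, with 1 mean per genotype over 10 arrays, no covariate, and Benjamini-Hochberg adjustment over 22626 probe sets, which leave out 64 array controls. Calls are at an adjusted p under 0.05, two-sided. Probe sets with 1 gene symbol numbered 20380, with several 691 and with none 1555. Pooled against individual extract is the coefficient of extract type with genotype in the model. That test and its repeats were added after the values were seen, as were the repeats without alpha-TM175 array 1.

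The alternatives were extract type as a covariate, individual extracts only, a replicate block, a second quantile normalization, array weights, probe sets above the median level, an intensity trend with robust fitting, the mean of a gene's probe sets, and 1 array left out in turn. Values per array are given for Pecam1, Cdh5, Kdr, Flt1, Tek, Vegfa and Edn1, for members called between genotypes, and for members whose arrays did not overlap between genotypes, at most 6 per comparison. Further pathway genes are named where called between genotypes. Other named genes, such as those called between extracts, were chosen after their values were seen. Markers of lymphatic endothelium, endocardium, macrophages, lymphocytes and red blood cells were also counted, and 0 of them were called between genotypes without extract type. With extract type in the model, 1 of the 3 red blood cell markers measured was called lower in alpha-TM180 against alpha-TM175. In that comparison 0.0265% of all probe sets were called.

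The members and lists were chosen with earlier results of these data known. Labels give separate extracts, individual or pooled, as replicates, so p-values measure the spread between these extracts and not between single hearts. Without extract type in the model, that spread takes in the shift between pools and individual hearts. Each array held distinct values. Same-numbered arrays of different genotypes deviated together with correlations from -0.534 to 0.707. Both ends of this range came from arrays numbered 3, which are pools in alpha-TM175 and NTG and an individual heart in alpha-TM180. Arrays numbered 1 and 2, all individual hearts, gave -0.113 to 0.485. The shift between extracts enters these values, so they cannot decide whether the numbers pair the samples.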

Additional observations from a re-analysis of the deposited data

Results flagged for a closer look

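In alpha-TM180, the genotype with 4 arrays, 5 of 33 genes had 1 array apart from the other 3, by the gap to its nearest neighbour over the whole range on the log2 scale, by Dixon's 95% rule. The rule is set to flag about 1 group in 20 among samples of the same kind. Here array 4 is a pool and the other 3 are individual hearts. The share flagged over all genes was not counted, so no excess in the 33 genes can be read from this. Flt1 (0.945), Vwf (0.920) and Sox17 (0.844) had the pool, array 4, as the highest array. Egfl7 (0.969) and Klf2 (0.845) had array 3, an individual heart, as the lowest.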

How the results depend on the processing

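Few arrays limit these comparisons, and extract type and single arrays move the counts. No members were called between genotypes in any alternative but 1: array weights called 3 members in alpha-TM175 against NTG (Esam and Edn1 higher, Emcn lower), or 9.09%, where they called 23.7% of all probe sets and gave the most weight to alpha-TM175 array 2 (3.24) and NTG array 1 (2.92). For the 13 named members, 733 of 735 values under alternatives kept their side of the threshold and 0 reversed while called. The other 2 were Edn1 at 0.28 (limma adjusted p = 0.0499) and Esam at 0.43 (adjusted p = 0.0339) under array weights. Uncalled values changed sign 43 times and kept it 651 times.

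Counts of called probe sets moved more. In alpha-TM180 against NTG (114), limma called 454 with extract type, 44 in individual extracts only, 32 with the replicate block, 754 with array weights, and 484 with extract type and without alpha-TM175 array 1. In alpha-TM175 against NTG (2), it called 195, 1 with the replicate block, 5361 with array weights, 8 with gene means and 14 with extract type and without alpha-TM175 array 1. In alpha-TM180 against alpha-TM175 (0), it called 6 with extract type, 2341 with array weights and 1 with gene means. With the replicate block, 0 members were called in each comparison, and whether the shared replicate numbers pair the hearts is not known. Leaving out 1 array in turn gave 8 to 135 probe sets, 1 to 2 and 0 to 1 in the 3 comparisons, and 0 members. The lowest count in alpha-TM180 came without NTG array 1. Median differences of the members then ran from 0.07 to 0.17, from -0.07 to 0.21 and from -0.10 to 0.17. A second quantile normalization gave 0.08, 0.19 and -0.05. For pooled against individual extracts, leaving out 1 array gave 4 to 10 members and 2049 to 6791 probe sets, and counts were lowest without a pool. The cause of these shifts was not tested.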
